A study of Mus musculus with 5 samples.

Results

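The genes described here are 35 mouse genes of sterol and fatty acid synthesis, chosen by a fixed list of symbols: 18 enzymes of the mevalonate and cholesterol pathway, 6 regulators of the SREBP system and 11 enzymes that build, elongate or desaturate fatty acids. Of the 49246 genes with transcripts in every library, 10770 passed the minimum of a mean of 1 FPKM (fragments per kilobase, a level corrected for transcript length and for library size) and were tested, among them 32 of the 35. RNA was sequenced from bone marrow-derived macrophages of wild type C57BL/6 mice, the adherent cells that CSF1 or L929-conditioned medium grows from marrow. Overnight after seeding, the cells received either 30 µM CBR-5884, which inhibits PHGDH, the enzyme that opens the serine pathway, or its solvent, and then 10 ng/ml IL-4, and they were harvested 24 h after IL-4. The CBR-5884 group has 3 libraries (replicates 3, 4 and 5) and the solvent group 2 (replicates 3 and 5). Every cell in both groups received IL-4, so the comparison is of the inhibitor with its solvent in IL-4-treated cells. The labels do not say that the replicates came from separate mice or cultures, so each p-value is set against a spread among libraries that may be technical.

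Cholesterol is made from acetyl-CoA by way of mevalonate, isoprenoid diphosphates, squalene and lanosterol, and fatty acids are made from the same acetyl-CoA by way of malonyl-CoA. The genes of both pathways are targets of the SREBP transcription factors, membrane proteins that SCAP carries from the endoplasmic reticulum to the Golgi for cleavage when sterol is low and that INSIG proteins hold back when sterol is high. SREBP2, from Srebf2, acts mainly on sterol genes, and SREBP1, from Srebf1, mainly on fatty acid genes, the latter also under the oxysterol receptor LXR. In macrophages these pathways set membrane composition, and their intermediates feed back on LXR and on inflammatory genes.

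No member passed the test, a limma comparison on log2(FPKM + 1) with Benjamini-Hochberg adjustment over all 10770 genes: 0 of the 32 members had an adjusted p below 0.05, against 0.223% of all genes (0.0464% higher and 0.176% lower in the CBR-5884 group). With no adjustment, at a p below 0.05, 5 of the 32 members were higher with CBR-5884 (Hmgcs1, Stard4, Scd2, Elovl5 and Fads1) and 0 were lower, against 7.24% of all genes higher and 12.4% lower. Most members nevertheless had a positive log2 fold change, CBR-5884 over solvent: 23 of 32, with a median of 0.17, against 44.3% of all genes, whose median was -0.03. The 3 CBR-5884 libraries lay entirely above the 2 solvent libraries for 12 members and entirely below for 3, while 16.6% of all genes were entirely above and 24.9% entirely below.

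**Figure D1:**
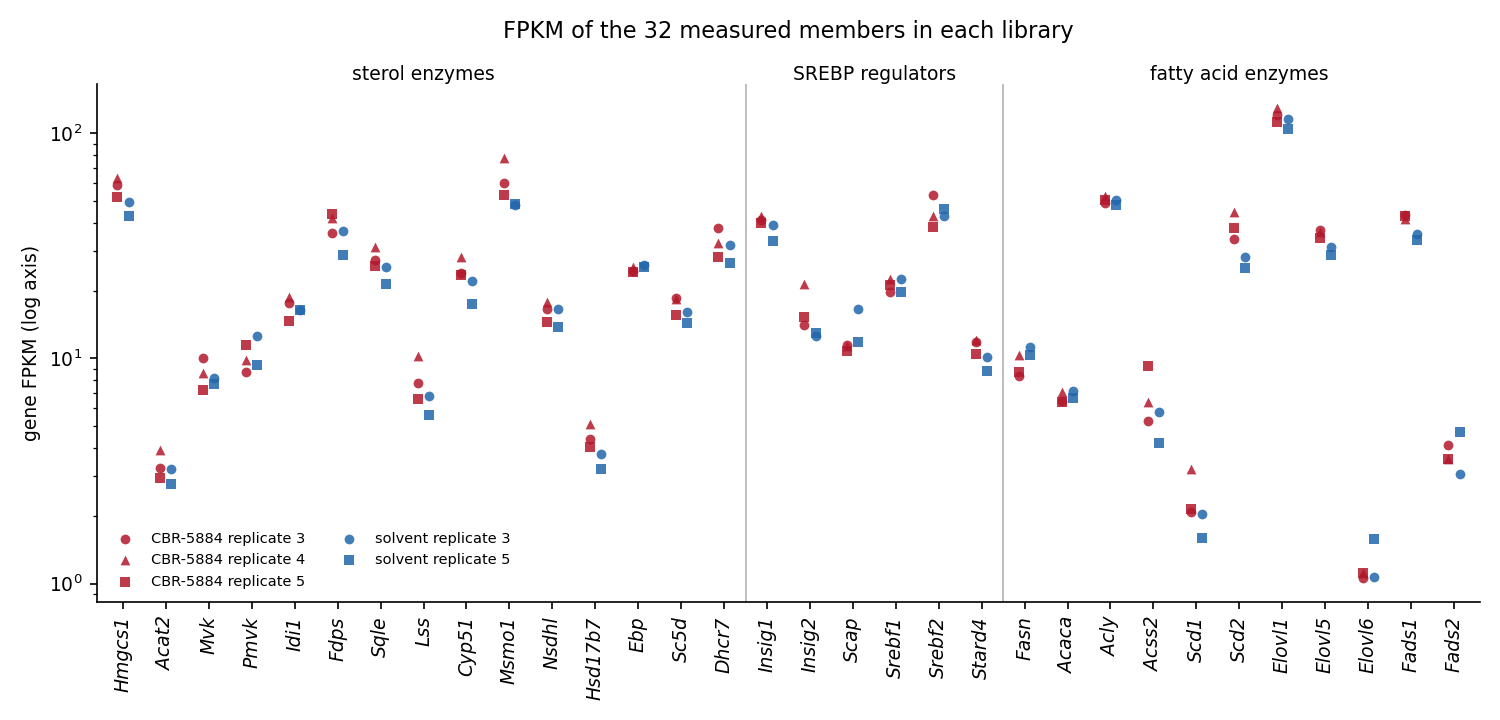
Gene FPKM on a log axis for the 32 measured members, with 1 point for each library (3 with CBR-5884 in red, 2 with solvent in blue) and vertical lines between the sterol enzymes, the SREBP regulators and the fatty acid enzymes. Levels ran from about 1 FPKM for Elovl6 to over 100 for Elovl1, and for most genes the points of the 2 groups lie close together.

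The RefSeq promoter windows of GRCm38.p6, from 250 bases before to 50 after each gene's start, were searched on both strands for 2 motifs, the sterol regulatory element TCACNCCAC that SREBP binds and CCAAT, the site of NF-Y, its common partner. Of the 35 members, 28 had a window used here, 37 windows in all, and a motif in any window of a gene was counted for that gene. The 15 sterol enzymes with a window are not the 15 tested for expression: they include Mvd and Tm7sf2 and lack Sqle and Fdps. CCAAT was present in 14 of 15 sterol enzymes (93.3%), in 4 of 5 SREBP regulators (80%) and in 5 of 8 fatty acid enzymes (62.5%), beside 41.1% of all 27025 genes with windows. TCACNCCAC was present in 1 member, Hmgcs1, 137 bases before its start, beside 1.44% of all genes. A match describes letters in these windows and does not show binding. Only these exact patterns were searched, so a window with no match is not shown to lack a site for SREBP or NF-Y. Printed below, 5′ to 3′ on the strand of the gene, are the windows of 3 sterol enzymes whose libraries did not overlap between groups, with those of Elovl5, a fatty acid enzyme higher with CBR-5884, and Fasn, the fatty acid enzyme that was lower. Capitals mark the motifs, and on the opposite strand CCAAT reads ATTGG. They lie at chr13:119690101-119690400 on the plus strand for Hmgcs1, chr8:64733529-64733828 on the minus strand for Msmo1, chr5:4104648-4104947 on the minus strand for Cyp51, chr9:77917115-77917414 on the plus strand for Elovl5 and chr11:120824498-120824797 on the minus strand for Fasn.
Hmgcs1: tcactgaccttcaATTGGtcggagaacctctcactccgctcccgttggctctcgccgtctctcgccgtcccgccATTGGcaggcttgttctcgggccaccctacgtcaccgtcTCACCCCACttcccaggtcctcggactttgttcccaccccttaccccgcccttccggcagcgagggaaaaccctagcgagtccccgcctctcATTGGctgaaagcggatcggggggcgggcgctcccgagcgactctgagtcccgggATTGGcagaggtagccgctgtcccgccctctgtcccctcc
Msmo1: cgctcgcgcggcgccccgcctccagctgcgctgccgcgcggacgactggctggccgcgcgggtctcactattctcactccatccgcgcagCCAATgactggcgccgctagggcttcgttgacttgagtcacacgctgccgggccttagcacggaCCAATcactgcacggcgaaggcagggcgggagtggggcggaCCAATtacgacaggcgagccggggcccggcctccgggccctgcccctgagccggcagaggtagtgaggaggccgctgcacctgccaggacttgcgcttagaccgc
Cyp51: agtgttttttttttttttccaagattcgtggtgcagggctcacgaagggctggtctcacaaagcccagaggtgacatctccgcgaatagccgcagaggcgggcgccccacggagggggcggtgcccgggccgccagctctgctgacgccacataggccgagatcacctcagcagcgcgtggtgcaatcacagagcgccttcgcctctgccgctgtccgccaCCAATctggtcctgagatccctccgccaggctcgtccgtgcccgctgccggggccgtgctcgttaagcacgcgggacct
Elovl5: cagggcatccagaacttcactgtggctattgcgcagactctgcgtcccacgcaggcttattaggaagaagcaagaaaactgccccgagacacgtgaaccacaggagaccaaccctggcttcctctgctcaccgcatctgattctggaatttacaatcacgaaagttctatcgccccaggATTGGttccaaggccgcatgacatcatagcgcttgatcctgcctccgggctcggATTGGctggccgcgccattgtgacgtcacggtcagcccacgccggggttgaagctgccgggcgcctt
Fasn: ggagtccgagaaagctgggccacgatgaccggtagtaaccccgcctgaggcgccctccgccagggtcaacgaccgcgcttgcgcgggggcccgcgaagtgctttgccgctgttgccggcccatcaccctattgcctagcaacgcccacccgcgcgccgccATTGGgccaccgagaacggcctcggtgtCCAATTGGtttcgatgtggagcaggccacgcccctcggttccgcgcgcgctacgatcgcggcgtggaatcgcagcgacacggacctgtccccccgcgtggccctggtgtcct

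Among the sterol enzymes, 13 of the 15 that could be tested had a positive log2 fold change with CBR-5884, beside 44.3% of all genes, and the median was 0.18. The groups did not overlap for 6 of them: Hmgcs1, Sqle, Cyp51, Msmo1 and Hsd17b7 were higher in each CBR-5884 library than in either solvent library, and Ebp was lower. Of all genes, 16.6% were higher and 24.9% lower without overlap. No sterol enzyme was called by limma, and the lowest adjusted p was 0.226. Msmo1 and Lss had the largest differences between group means, 31.4% and 31.8% of the solvent mean.

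Hmgcs1, the cytosolic HMG-CoA synthase that commits acetoacetyl-CoA to the mevalonate pathway, lies at chr13:119690379-119708260 (plus strand, mm10) and was the most abundant sterol enzyme of the pathway's early steps. It stood at 59.1, 63.2 and 52.3 FPKM in CBR-5884 replicates 3, 4 and 5, and at 49.5 and 43.0 in solvent replicates 3 and 5, the order kept for every gene that follows. Each CBR-5884 library was above both solvent libraries, by the least for replicate 5 against solvent replicate 3. The means were 58.2 ± 5.51 (SD, n = 3) and 46.2 ± 4.60 FPKM (SD, n = 2), a log2 fold change of 0.33 ± 0.11 (SE) with a 95% interval of 0.03 to 0.62. Its limma adjusted p was 0.226. Acat2, which makes the acetoacetyl-CoA, was at 2.78 to 3.94 FPKM with overlapping groups and a log2 fold change of 0.12. Acat2 shares 97.7% identity over 1477 nt with Acat3, so its reads could be divided between the 2 genes, although Acat3 was listed at 0.

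The kinases and the isomerase that turn mevalonate into isoprenoid diphosphates overlapped between groups. Mvk had a log2 fold change of 0.10, Pmvk of -0.11 and Idi1 of 0.04, each with a 95% interval that spans 0. Weighted by transcript length, the values were -0.001 for Mvk, -0.001 for Pmvk and 0.183 for Idi1. In solvent replicate 5, 67.1% of the Idi1 sum was an assembled transcript of 2164 nt. The Pmvk sum in solvent replicate 3 held transcripts of 652 and 978 nt, at 3.48 and 1.89 FPKM, that were at 0 elsewhere. Mvd, the decarboxylase between the kinases and the isomerase, was not analysed here. Fdps, which makes farnesyl diphosphate, was at 35.9, 42.0 and 43.7 FPKM with CBR-5884 against 36.7 and 28.8 with solvent. Solvent replicate 3 lay inside the CBR-5884 range and solvent replicate 5 well below it, and the log2 fold change of 0.30 had a 95% interval of -0.07 to 0.68. The 43.7 FPKM of CBR-5884 replicate 5 included 7.74 FPKM of an assembled transcript of 585 nt, and the log2 fold change weighted by transcript length was 0.25. Fdps shares 1124 nt with Gm43738 on the same strand, which was listed at 0.

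Fdft1, the squalene synthase that directs farnesyl diphosphate into sterols, was listed at 0 in all 5 libraries, and so was Tm7sf2, a sterol C14-reductase. An exact 0 can be a failed estimate, and both genes share exons with abundant neighbours. Fdft1 overlaps 774 nt of Ctsb, on the opposite strand, which stood at 2223 to 2577 FPKM. Tm7sf2 overlaps 532 nt of Vps51, on the same strand, which stood at 19.7 to 27.9 FPKM. Neither gene is described further.

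Sqle, the oxygenase that makes squalene epoxide, was at 27.4, 31.2 and 25.7 FPKM with CBR-5884 against 25.5 and 21.5 with solvent. The groups did not overlap, but the lowest CBR-5884 library and solvent replicate 3 were nearly level. Its log2 fold change was 0.25 ± 0.12 (SE), with a limma adjusted p of 0.335, and it was 0.13 without solvent replicate 5. Lss, the cyclase that forms lanosterol, had 1 CBR-5884 library below solvent replicate 3 and a log2 fold change of 0.34 with a wide interval, -0.18 to 0.85. That value was 0.18 without CBR-5884 replicate 4, 0.21 without solvent replicate 5, 0.18 weighted by transcript length and 0.02 from reference transcripts alone.

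Lanosterol is then stripped of its methyl groups. Cyp51, the lanosterol 14-alpha-demethylase (chr5:4081145-4104746, minus strand), was at 24.0, 28.2 and 23.5 FPKM with CBR-5884 against 22.1 and 17.5 with solvent. Its groups did not overlap, and the fold change of 0.34 on the log2 scale had a 95% interval of -0.02 to 0.70 and a limma adjusted p of 0.276. Cyp51 shares 166 nt with Akap9 on the opposite strand, at a mean of 4.32 FPKM. Msmo1, the C4-methyl oxidase of a later step (chr8:64718139-64733792, minus strand), was at 60.0, 77.7 and 53.2 FPKM with CBR-5884 against 48.2 and 48.6 with solvent. Here the solvent libraries were almost equal in FPKM, though from transcripts of different length. The spread was within the CBR-5884 group, where replicate 4 was the highest. The means were 63.6 ± 12.7 (SD, n = 3) and 48.4 ± 0.304 FPKM (SD, n = 2), a log2 fold change of 0.37 ± 0.17 (SE) with a limma adjusted p of 0.327, and 0.22 without CBR-5884 replicate 4.

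Nsdhl and Hsd17b7 complete the removal of the C4 methyl groups. Hsd17b7 was at 4.38, 5.13 and 4.03 FPKM with CBR-5884 against 3.78 and 3.24 with solvent, without overlap and with a log2 fold change of 0.29, while Nsdhl overlapped at 0.09. Ebp, the sterol isomerase, was at 24.5, 25.4 and 24.2 FPKM with CBR-5884 against 26.0 and 25.5 with solvent. It was lower in each CBR-5884 library, by a log2 fold change of only -0.06, with a 95% interval of -0.18 to 0.07. Sc5d and Dhcr7, which introduce and reduce ring double bonds at the end of the pathway, overlapped, with log2 fold changes of 0.18 and 0.16, or 0.11 and 0.03 without solvent replicate 5.

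**Figure D2:**
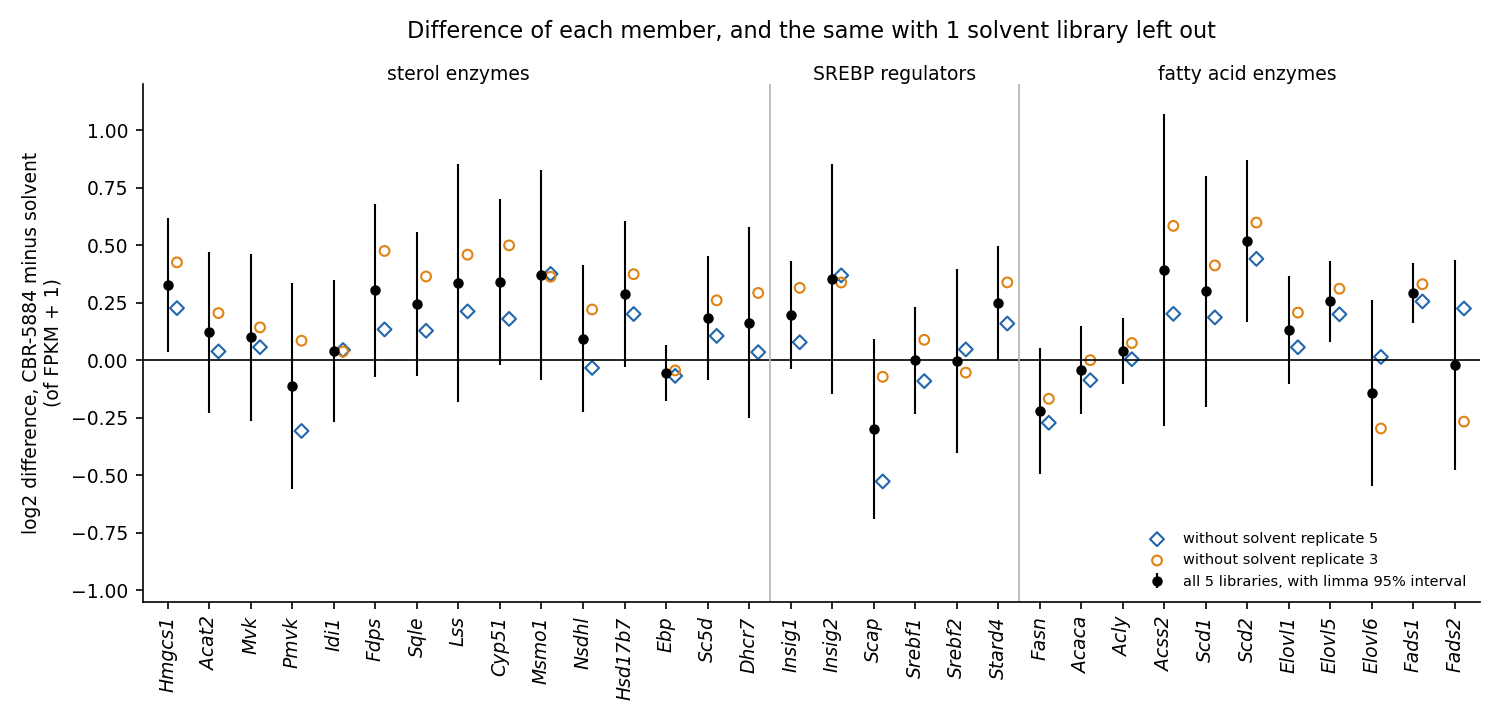
Log2 difference in FPKM + 1, CBR-5884 minus solvent, of each measured member: black points with 95% intervals from limma on all 5 libraries, blue diamonds without solvent replicate 5 and orange circles without solvent replicate 3. Most intervals cross 0, and among the sterol enzymes the diamonds lie below the circles for 13 of 15 genes.

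The SREBP regulators gave a mixed picture, with 3 of 6 above 0 (44.3% of all genes), a median log2 fold change of 0.10 and 0 called by limma. The factors themselves had log2 fold changes near 0, with intervals that include the sterol enzyme median of 0.18. Srebf2 was at 45.0 ± 7.60 FPKM (SD, n = 3) with CBR-5884 and 44.7 ± 2.26 (SD, n = 2) with solvent, and its log2 fold change of -0.00 had a 95% interval of -0.40 to 0.40. The sum held short assembled transcripts, 13.8 FPKM of 418 nt in CBR-5884 replicate 3 and 9.30 FPKM of 438 nt in solvent replicate 5. Its reference transcript was at 39.5, 43.1 and 38.5 FPKM with CBR-5884 against 43.1 and 37.0 with solvent. Srebf1 was at 21.2 ± 1.36 (SD, n = 3) and 21.2 ± 1.95 FPKM (SD, n = 2), with an interval of -0.23 to 0.23. These are transcript levels and say nothing of cleavage of the proteins.

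Insig1, an SREBP target that retains SCAP in the endoplasmic reticulum, was at 41.1, 43.1 and 39.9 FPKM with CBR-5884 against 39.2 and 33.1 with solvent. All 3 CBR-5884 libraries were above both solvent libraries, the lowest by under 1 FPKM above solvent replicate 3, and the log2 fold change was 0.20 ± 0.09 (SE) with a limma adjusted p of 0.316. It was 0.08 without solvent replicate 5 and 0.31 without solvent replicate 3. Stard4, a carrier of cholesterol between membranes and an SREBP2 target, was at 11.8, 12.0 and 10.5 FPKM with CBR-5884 against 10.1 and 8.81 with solvent. It had no overlap, a log2 fold change of 0.25 with a 95% interval of 0.00 to 0.49, and a limma adjusted p of 0.253, and it was at 0.16 without solvent replicate 5.

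For Insig2 and Scap, 1 shorter transcript with FPKM above 0 in a single library raised the sum there. Insig2 was at 14.1, 21.3 and 15.3 FPKM with CBR-5884 against 12.6 and 12.9 with solvent, a log2 fold change of 0.35. In CBR-5884 replicate 4 a reference transcript of 674 nt contributed 8.68 FPKM beside the 2461 nt form that made up the whole value elsewhere, and weighting transcripts by length gave 0.19. Scap was at 11.5, 11.3 and 10.8 FPKM with CBR-5884 against 16.6 and 11.8 with solvent, a log2 fold change of -0.30. The high value in solvent replicate 3 included 8.09 FPKM of an assembled transcript of 2886 nt, and the log2 fold change was -0.16 weighted by length and -0.07 without that library, and from reference transcripts alone it was positive, at 0.64. Scap also shares 985 nt with 5830462I19Rik on the opposite strand.

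The fatty acid enzymes were mixed: 7 of 11 had a positive log2 fold change, beside 44.3% of all genes, the median was 0.13 and 0 were called by limma. The groups did not overlap for Scd1, Scd2, Elovl5 and Fads1, which were higher with CBR-5884, and for Fasn, which was lower. Of all genes, 16.6% were higher and 24.9% lower without overlap. By role, the median was -0.00 for the 4 enzymes that build fatty acids, 0.13 for the 3 elongases and 0.30 for the 4 desaturases. Of the desaturases, 3 of 4 were higher without overlap, and of the building enzymes 0 of 4 were higher and 1 lower, beside the same shares of all genes. The split by role was not among the planned results, and each role holds only 3 or 4 genes. No test compared these roles with each other or with the sterol enzymes.

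Fasn, the fatty acid synthase that joins malonyl units into palmitate (chr11:120805846-120824547, minus strand), was at 8.38, 10.3 and 8.73 FPKM with CBR-5884 against 11.2 and 10.4 with solvent. Each CBR-5884 library was below both solvent libraries, replicate 4 by very little. The means were 9.15 ± 1.03 (SD, n = 3) and 10.8 ± 0.602 FPKM (SD, n = 2), 15.2% lower with CBR-5884, with a log2 fold change of -0.22 ± 0.10 (SE) and a limma adjusted p of 0.329. Acaca, the carboxylase that makes malonyl-CoA, and Acly, which releases acetyl-CoA from citrate, overlapped, at -0.04 and 0.04. Their 95% intervals were narrow, -0.23 to 0.15 and -0.10 to 0.18. For Acaca the interval covers the spread among libraries and not the choice of transcripts. Assembled transcripts held 63% and 100% of its sum in solvent replicates 3 and 5, and 16% to 20% with CBR-5884. Acaca also shares 99.2% identity over 6118 nt with Gm5182, so some reads could be assigned to either. Acss2, which makes acetyl-CoA from acetate, was at 5.27, 6.43 and 9.29 FPKM with CBR-5884 against 5.80 and 4.22 with solvent, overlapping, with a log2 fold change of 0.39 and an interval of -0.28 to 1.07. The value was 0.20 without solvent replicate 5, 0.58 without solvent replicate 3, 0.20 without CBR-5884 replicate 5, 0.25 weighted by transcript length and 0.66 from reference transcripts alone. An assembled transcript gave 4.09 FPKM of the 9.29, and Acss2 shares 395 nt with Gss on the opposite strand, at 10.9 to 18.4 FPKM.

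Scd2, a stearoyl-CoA desaturase that makes monounsaturated fatty acids (chr19:44293674-44306864, plus strand), had the largest log2 fold change of all members. It was at 34.0, 44.6 and 38.1 FPKM with CBR-5884 against 28.2 and 25.2 with solvent. The groups were well apart, with the lowest CBR-5884 library above the highest solvent library by more than the gap between the solvent libraries. The means were 38.9 ± 5.36 (SD, n = 3) and 26.7 ± 2.14 FPKM (SD, n = 2), 45.6% higher, with a log2 fold change of 0.52 ± 0.13 (SE), a 95% interval of 0.17 to 0.87 and a limma adjusted p of 0.168. Its paralog Scd1 was at 2.08, 3.22 and 2.16 FPKM with CBR-5884 against 2.03 and 1.59 with solvent. That gap was small, 2 of the 3 CBR-5884 libraries being within 0.2 FPKM of solvent replicate 3, and the log2 fold change of 0.30 had an interval of -0.20 to 0.80 and was 0.19 without solvent replicate 5 and 0.15 without CBR-5884 replicate 4. The 2 transcripts are 95.5% identical over 623 nt, so some reads could be assigned to either.

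Fads1, the delta-5 desaturase of polyunsaturated fatty acids (chr19:10182888-10196877, plus strand), had the smallest p of the members. It was at 43.3, 41.6 and 43.0 FPKM with CBR-5884 against 35.5 and 33.7 with solvent. Both groups were tight and clearly apart, at 42.6 ± 0.928 (SD, n = 3) and 34.6 ± 1.31 FPKM (SD, n = 2). The log2 fold change was 0.29 ± 0.05 (SE), with a 95% interval of 0.16 to 0.42 and a limma adjusted p of 0.126. The sum includes assembled transcripts in 2 libraries, 35.4% of it in CBR-5884 replicate 3 and 14.1% in replicate 5, and counting reference transcripts alone left a log2 fold change of 0.02. Fads2, the delta-6 desaturase next to it on chromosome 19, was at 4.12, 3.59 and 3.59 FPKM with CBR-5884 against 3.07 and 4.73 with solvent. The solvent libraries lay on either side of the others, and the log2 fold change was -0.02, or 0.48 weighted by transcript length.

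Of the elongases, Elovl5, which extends polyunsaturated fatty acids (chr9:77917364-77984519, plus strand), was at 37.4, 36.6 and 34.1 FPKM with CBR-5884 against 31.2 and 28.8 with solvent. All of its FPKM came from reference transcripts, the groups were apart, and the log2 fold change was 0.25 ± 0.07 (SE), with a 95% interval of 0.08 to 0.43 and a limma adjusted p of 0.17. Elovl1, an elongase of very long saturated chains and the most abundant member, was at 121 ± 9.07 FPKM (SD, n = 3) against 110 ± 8.21 (SD, n = 2), overlapping, at 0.13. Elovl6, which extends palmitate, was at 1.06 to 1.57 FPKM, near the minimum for testing, with a log2 fold change of -0.14.

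How far the upward shift rests on solvent replicate 5 was examined by comparing each CBR-5884 library with each solvent library. Solvent replicate 5 was below solvent replicate 3 for 13 of 15 sterol enzymes, 4 of 6 regulators and 9 of 11 fatty acid enzymes, beside 44.2% of all genes. The median log2 difference between these 2 libraries, replicate 5 minus replicate 3, was -0.20 for sterol enzymes, -0.18 for regulators and -0.10 for fatty acid enzymes, against 0.02 for all genes. For the sterol enzymes the gap between the 2 solvent libraries was therefore as large as the median difference between the treatments, 0.18. Solvent replicate 5 was the lowest of the 5 libraries for 19 of 32 members (10 sterol enzymes, 2 regulators and 7 fatty acid enzymes), beside 14.6% of all genes.

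Without solvent replicate 5 the median log2 fold change of the sterol enzymes was 0.11, and without solvent replicate 3 it was 0.29. The count above 0 differed less than the median: 12 of 15 sterol enzymes were above 0 without solvent replicate 5 and 14 without solvent replicate 3. Over all members, the log2 fold change was smaller without solvent replicate 5 for 26 of 32, and the median was 0.09 without it against 0.28 without solvent replicate 3. All 3 CBR-5884 libraries were above solvent replicate 5 for 11 of 15 sterol enzymes (24.8% of all genes) but above solvent replicate 3 for 5 of 15 (28.7% of all genes). Against solvent replicate 3 the sterol medians were 0.12, 0.19 and -0.04 for CBR-5884 replicates 3, 4 and 5, and against solvent replicate 5 they were 0.33, 0.38 and 0.13. CBR-5884 replicate 5 was thus level with solvent replicate 3, with 6 of 15 sterol enzymes above it. Between libraries of the same replicate number, the sterol medians were 0.12 for replicate 3 and 0.13 for replicate 5. Of the 15 enzymes, 11 and 12 were above 0 in these comparisons.

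**Figure D3:**
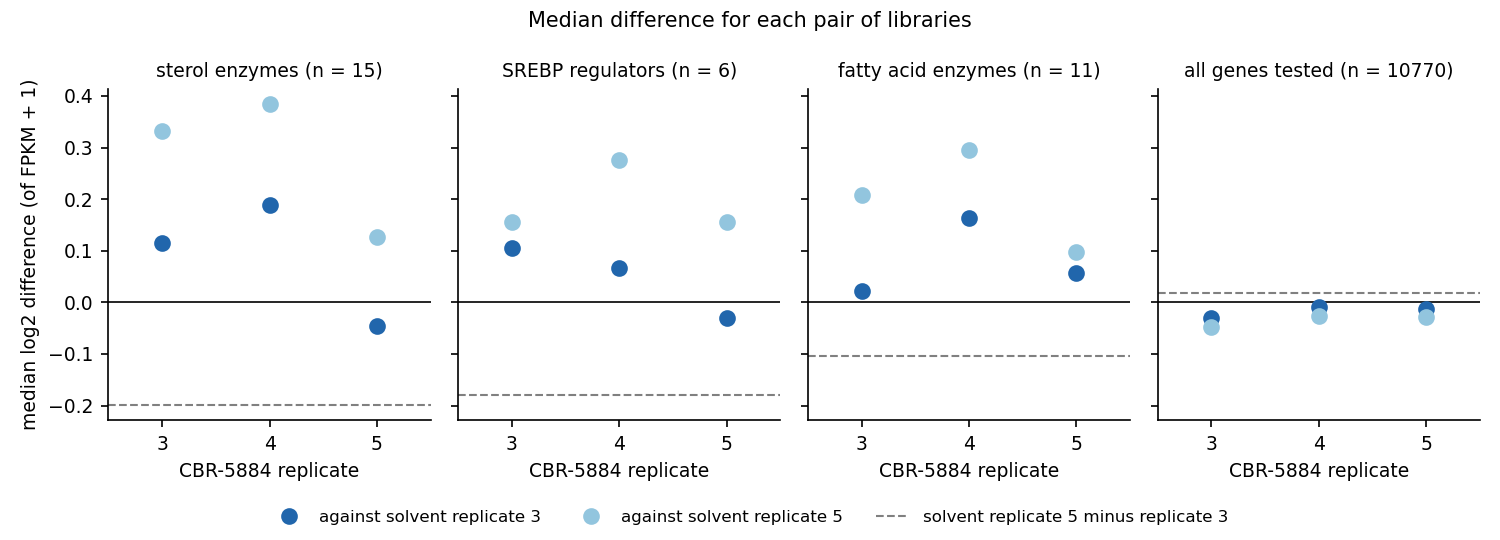
Median log2 difference in FPKM + 1 of each CBR-5884 library from solvent replicate 3 (dark blue) and solvent replicate 5 (light blue), for sterol enzymes, SREBP regulators, fatty acid enzymes and all genes tested, with solvent replicate 5 minus replicate 3 as a dashed line. For sterol enzymes the light points sit at 0.13 to 0.38 and the dark points at -0.04 to 0.19, while for all genes every median lies between -0.05 and 0.02.

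Single sterol enzymes depended on solvent replicate 5 to different degrees. The log2 fold change of Fdps was 0.13 without it and 0.47 without solvent replicate 3, that of Cyp51 0.18 and 0.50, that of Sqle 0.13 and 0.36, and that of Hmgcs1 0.23 and 0.43. Msmo1 stood apart, at 0.37 and 0.36, because its summed FPKM was level in the solvent libraries. That sum was an assembled transcript of 1803 nt in solvent replicate 5 and the reference transcript of 2044 nt in solvent replicate 3. The level values therefore rest on different transcripts, and whether the RNA itself was level was not tested. CBR-5884 replicate 4 was the highest of the CBR-5884 libraries for 10 of 15 sterol enzymes, and for 20 of 32 members, beside 36.8% of all genes.

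The log2 fold change was lower without solvent replicate 5 for 9 of 11 fatty acid enzymes, beside 13 of 15 sterol enzymes. The fatty acid median did not follow: it was 0.19 without solvent replicate 5 and 0.21 without solvent replicate 3, both above the 0.13 of all 5 libraries. Fads2 and Elovl6 were highest in solvent replicate 5, and without it their values were 0.22 and 0.01. Their sums there included transcripts above 0 in that library only. For Fads2 this was an assembled transcript of 654 nt at 2.21 FPKM, and for Elovl6 a reference transcript of 2610 nt at 0.494 FPKM. Without CBR-5884 replicate 4 the median was 0.08. Scd2 was at 0.44 without solvent replicate 5 and 0.60 without solvent replicate 3, Elovl5 at 0.20 and 0.31, and Fads1 at 0.26 and 0.33. Fasn was at -0.27 and -0.17, so its lower level in the CBR-5884 group did not need solvent replicate 5. For the regulators the median was 0.06 without solvent replicate 5, 0.20 without solvent replicate 3 and 0.16 without CBR-5884 replicate 5. No leave-out gave a called member in any of the 3 groups.

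Assembled transcripts entered the sums of 18 of the 32 members in at least 1 library, and of 6 members in all 5. Msmo1 came entirely from an assembled transcript in CBR-5884 replicate 4 and solvent replicate 5 and entirely from the reference in the other 3 libraries. Among members with no assembled part, 5 of 7 sterol enzymes were positive with a median log2 fold change of 0.12, and 5 of 6 fatty acid enzymes with a median of 0.19. For some of the others the choice of transcripts set the size of the difference: from reference transcripts alone the log2 fold change was 1.09 for Msmo1, 1.09 for Insig2 and 1.755 for Acaca, all of which came wholly from assembled transcripts in at least 1 library.

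**Figure D4:**
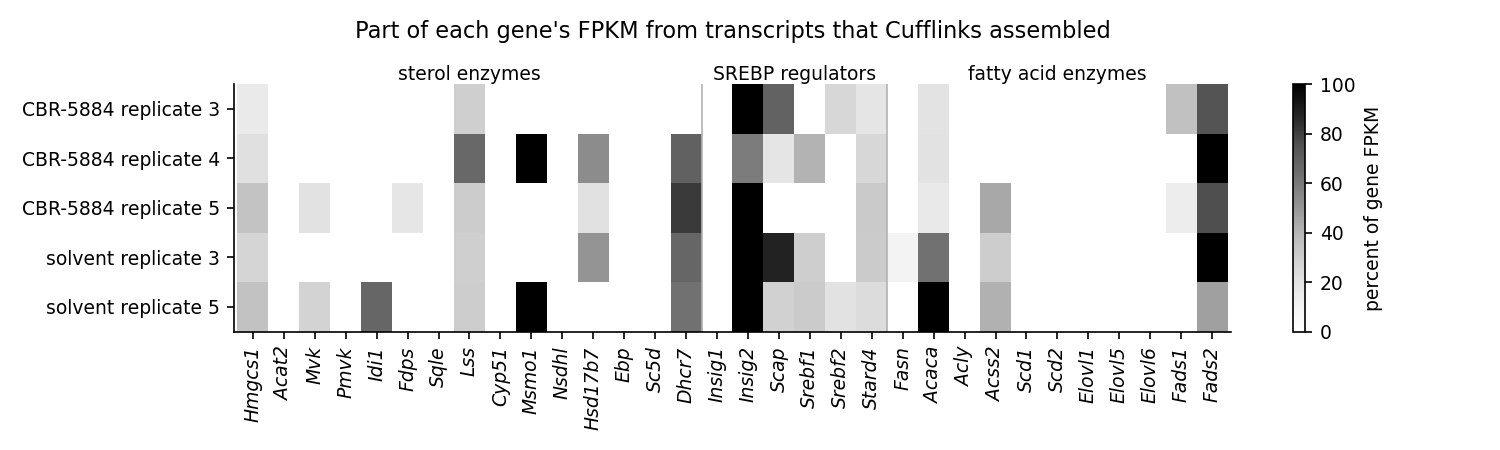
Share of each member's FPKM that came from transcripts Cufflinks assembled in that library, in percent, with libraries in rows and members in columns. Members in white in every row, 14 in all, rest on reference transcripts alone, and Insig2 and Fads2 have an assembled share in every library.

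Other genes of the same pathways, taken from lists and named where their p was smallest, also had mostly positive log2 fold changes and 0 calls by limma. Of 16 tested sterol pathway genes outside the members, 12 had a positive log2 fold change, the median was 0.17, and 9 were higher and 1 lower without overlap. Of all genes, 44.3% were positive, and 16.6% were higher and 24.9% lower without overlap. Unlike the member sterol enzymes, solvent replicate 5 was below solvent replicate 3 for 9 of these 16 (44.2% of all genes), with a median log2 difference of -0.05. All 3 CBR-5884 libraries were above solvent replicate 3 for 11 of the 16, beside 28.7% of all genes. Soat1, which esterifies cholesterol for storage, was at 261, 252 and 245 FPKM with CBR-5884 against 193 and 189 with solvent, far apart for their spread, with a log2 fold change of 0.40 ± 0.05 (SE) and a limma adjusted p of 0.086. Ggps1, which makes geranylgeranyl diphosphate, was at 8.64 ± 0.412 FPKM (SD, n = 3) against 6.34 ± 0.527 (SD, n = 2), a log2 fold change of 0.40, or 0.15 weighted by transcript length. Mbtps2, the site-2 protease that releases SREBP, was at 15.2 ± 0.643 (SD, n = 3) against 12.7 ± 0.629 FPKM (SD, n = 2), a log2 fold change of 0.25. The solvent libraries of Ggps1 and Mbtps2 ran the other way from most members, with replicate 5 above replicate 3.

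Of 15 tested fatty acid pathway genes outside the members, 11 were positive, the median log2 fold change was 0.06, and 6 were higher and 0 lower without overlap. The shares of all genes were 44.3% positive, 16.6% higher and 24.9% lower. Solvent replicate 5 was below solvent replicate 3 for 6 of these 15, beside 44.2% of all genes. Me1, the malic enzyme that supplies NADPH, was at 8.17 ± 0.503 FPKM (SD, n = 3) against 4.86 ± 0.196 (SD, n = 2), 68.3% higher, with a log2 fold change of 0.65 ± 0.07 (SE) and a limma adjusted p of 0.0857. Acsl3, a fatty acid activating enzyme of lipid droplets, was at 8.09 ± 0.696 (SD, n = 3) against 5.31 ± 0.656 FPKM (SD, n = 2), a log2 fold change of 0.53. Acsl4, which activates arachidonate, had a log2 fold change of 0.18. Of 8 tested genes in a list of LXR targets that also includes the LXR genes themselves, 3 were positive and 5 negative, with a median of -0.04. Lpcat3, a phospholipid remodelling enzyme, was at 0.25, Mylip, a ubiquitin ligase for lipoprotein receptors, at 0.26, and Apoe, the apolipoprotein of cholesterol efflux, at -0.37, where 7247 ± 534 FPKM (SD, n = 3) stood against 9348 ± 974 (SD, n = 2).

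The libraries were of similar depth, with 28310000 to 30700000 fragments, estimated from coverage divided by FPKM, and the tested members rested on about 150 to 7400 fragments per library. All 6 macrophage markers were above 1 FPKM, with summed levels of 9721 to 13050 FPKM with CBR-5884 and 10980 to 13060 with solvent, mostly Lyz2. Of the 6, Itgam (23.4%) and Cd68 (14.1%) were higher with CBR-5884 without overlap and the other 4 overlapped, with limma adjusted p of 0.182 for Itgam and 0.132 for Cd68. Markers of adipocytes, cells rich in these enzymes, summed to 0.455 to 0.637 FPKM with CBR-5884 and 0.420 to 0.831 with solvent, with Lep and Cfd at 0 in every library. Lymphocyte markers summed to at most 0.116 FPKM and dendritic cell markers to 0.473 to 2.17. Neutrophil markers summed to 10.3 to 12.7 FPKM with CBR-5884 against 19.6 and 9.38 with solvent, with Ly6g at 0. Fibroblast markers, nearly all Col1a1 and Col1a2, summed to 10.7 to 17.1 FPKM with CBR-5884 against 17.8 and 18.8 with solvent, lower without overlap. The IL-4 response genes Retnla, Arg1, Chil3 and Mrc1 together stood at 2848 to 3124 FPKM with CBR-5884 against 6748 and 8926 with solvent, the largest gap being that of Retnla, while Chil3 was higher with CBR-5884, at 1077 to 1323 against 939 and 899. The part of the Itgam, Cd68, fibroblast and IL-4 response differences in the results above was not tested. In bulk RNA, fewer cells of a type and less RNA per cell cannot be told apart.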

How the data were processed

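The deposited values are FPKM of single transcripts in 1 file per library, reference and assembled, made with Bowtie2, TopHat2 and Cufflinks on mm10 (GRCm38), per the submitters' processing notes; the sources used here give no version, annotation release or strand setting. The libraries came from a directional kit and 1 read of 75 bases per fragment, per the labels' protocols. Of 71311 reference transcript IDs in the files, 70923 (99.5%) matched GENCODE M21. Gene FPKM is the sum over its reference transcripts and assembled transcripts of at least 200 nt with at least 50% of exonic bases on the gene. Assembled transcripts that fitted no gene held 64.0% to 70.3% of summed FPKM but 8.55% to 10.2% of covered bases.

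Because the values are not counts, no count model was used. Genes with a mean of at least 1 FPKM were tested on log2(FPKM + 1), with a pseudocount of 1, by limma 3.58.1 in R 4.3.3 (moderated, with variance trend, two-sided, Benjamini-Hochberg over 10770 genes, called at an adjusted p below 0.05), a step tested on simulated data. A log2 fold change on this scale understates changes of low genes. Groups follow the treatment label, and the replicate number is in the sample titles. The members and gene lists were chosen with earlier results of these data known. All members are named, and of the other lists the 3 genes with the smallest unadjusted p, since 0 were called. Alternatives changed the pseudocount, filter, scaling, transcript set, variance trend, replicate block and libraries; a length-weighted sum was added after seeing the data. Sequence similarity used BLAST+ 2.17.0, kept at 90% identity over 300 nt. FPKM levels are per length, so levels may be compared between genes.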

Additional observations from a re-analysis of the deposited data

How the results depend on the processing

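Over 17 alternatives, 0 members were called in any of them, by limma. Of 690 values for 41 named genes, 646 kept their direction and side of the threshold, 1 (Me1, summed by length weighting) passed it, and 43 changed sign, in 12 genes. Most of these lay near 0, and the cause was not tested. By scaling, Srebf1 was at 0.042 (TPM), 0.029 (median ratio) and 0.046 (quantile), Srebf2 at 0.040, 0.028 and 0.044, and Fads2 at 0.018, 0.004 and 0.009, with Acaca at 0.003 by quantile; 5 of 6 regulators were then positive. Weighted by length, Mvk was at -0.001, Srebf1 at 0.007, Srebf2 at 0.011 and Fads2 at 0.478, 5 regulators were positive and the fatty acid median was 0.248. From reference transcripts alone, or from the most abundant of them, Acaca was at 1.755, Scap at 0.636, Srebf1 at 0.257 and Srebf2 at 0.013, 6 regulators were positive with a median of 0.265, and the fatty acid median was 0.193 and 0.201; the latter choice also put Pmvk at 0.252, Dhcr7 at -0.114, Elovl6 at 0.012 and Acsl4 at -0.270. With a mean of at least 5 FPKM the fatty acid median was 0.193.

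Leaving out each library in turn gave medians of 0.062 to 0.201 for regulators and 0.078 to 0.207 for fatty acid enzymes. Genes that changed sign there ranged from -0.001 to 0.205 (Mvk), -0.308 to 0.085 (Pmvk), -0.030 to 0.142 (Idi1), -0.034 to 0.220 (Nsdhl), -0.091 to 0.089 (Srebf1), -0.131 to 0.099 (Srebf2), -0.087 to 0.000 (Acaca), -0.297 to 0.014 (Elovl6) and -0.267 to 0.225 (Fads2). Where 1 solvent library was left, it was assumed to vary like the CBR-5884 group. The deviations of same-numbered libraries correlated at 0.07 (replicate 3) and 0.08 (replicate 5) over all genes tested, and the numbers were not taken as pairs. With 2 solvent libraries the deviations of 1 mirror those of the other, so these correlations cannot settle whether equal numbers pair the groups. The labels do not say it either. With the replicate block, 3 genes were called over all genes against 24 without it, and the medians were 0.17 for sterol enzymes, 0.09 for regulators and 0.08 for fatty acid enzymes; Idi1 was at -0.030, Srebf2 at 0.021 and Fads2 at 0.005. With 2 solvent libraries, differences near 0.2 on the log2 scale were of the size of the gap between them.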
